A study of Mus musculus with 9 samples.

Results

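The imprinted locus of *Igf2r* and *Airn* in mouse embryonic stem cells (ESCs) is described here, CpG by CpG, from whole genome bisulfite sequencing (WGBS). The CpGs were those of both gene bodies and of 20 kb on both sides, which span chr17:12855272-13072988 of the mm9 genome build. This window holds 2404 CpGs of the 14240676 reference CpGs that the tables of all genotypes share, and 2354 of them had at least 3 reads in every genotype. Bisulfite converts unmethylated cytosines, and the share of unconverted reads at a CpG is its methylation level. The study compared J1 ESCs that were wild type (WT) or had lost *Dnmt3a* (*Dnmt3a* KO) or *Dnmt3b* (*Dnmt3b* KO). J1 is a line of strain 129S4/SvJae and was grown on gelatin with serum and LIF. The comparison shows the levels that remain without 1 of these de novo DNA methyltransferases, and not what each contributes alone. Each genotype was sequenced as 3 libraries that the authors merged into 1 table, so that every value below is 1 pooled value with no replicate error. Intervals are 95% Wilson intervals of read shares, and they cover counting error only. They are too narrow where neighbouring CpGs lie on the same molecules. The number of clones behind each KO is not given in the sources used here.

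*Igf2r* encodes the receptor for insulin-like growth factor 2 and mannose phosphate tags, which carries both ligands to lysosomes, and in most mouse tissues it is expressed from the maternal allele. *Airn* is a long noncoding RNA that starts inside *Igf2r*, runs antisense to it and silences it in cis on the paternal allele. The CpG island at the *Airn* promoter is the imprint control region of the cluster, and it gains methylation in the oocyte through DNMT3A and is then kept methylated on the maternal allele. In undifferentiated ESCs *Igf2r* is known to be expressed from both alleles, and the *Igf2r* promoter island is known to gain its paternal methylation only with differentiation. The tables carry no parental label, so that a level near the middle of the range cannot be divided into alleles here, and bisulfite does not separate 5mC from 5hmC.

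In the annotation of the same build *Igf2r* (ENSMUSG00000023830.7) lies on the minus strand at chr17:12875272-12962530 with 48 exons. *Airn* (ENSMUSG00000078247.3) lies on the plus strand at chr17:12934177-13052988, and its transcription start site (TSS) is in intron 2 of *Igf2r*, 28353 bp from the *Igf2r* TSS. The genes overlap over 28354 bp. A search of the reference sequence found 2 CpG islands in the window. The island at the *Airn* promoter, chr17:12934307-12935355, has 82 CpGs and starts 130 bp inside *Airn*, within intron 2 of *Igf2r*. The island at the *Igf2r* promoter, chr17:12961925-12962875, has 111 CpGs and covers the TSS and the first exon of *Igf2r*.

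The 3 stretches shown here, with their CpGs in capitals, were chosen because the results turn on them. They are the start of *Airn* (chr17:12934077-12934376, plus strand), the last 300 bases of the *Airn* island (chr17:12935056-12935355, plus strand) and the 250 bases just upstream of the *Igf2r* TSS (chr17:12962531-12962780, minus strand), all read from the mm9 reference.
Airn start: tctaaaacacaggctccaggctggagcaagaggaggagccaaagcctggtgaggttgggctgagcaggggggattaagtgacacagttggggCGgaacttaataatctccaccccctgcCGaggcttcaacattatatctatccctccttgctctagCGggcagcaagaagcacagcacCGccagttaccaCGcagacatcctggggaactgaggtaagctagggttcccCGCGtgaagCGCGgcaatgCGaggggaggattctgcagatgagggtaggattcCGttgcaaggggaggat
Airn island, last 300 bases: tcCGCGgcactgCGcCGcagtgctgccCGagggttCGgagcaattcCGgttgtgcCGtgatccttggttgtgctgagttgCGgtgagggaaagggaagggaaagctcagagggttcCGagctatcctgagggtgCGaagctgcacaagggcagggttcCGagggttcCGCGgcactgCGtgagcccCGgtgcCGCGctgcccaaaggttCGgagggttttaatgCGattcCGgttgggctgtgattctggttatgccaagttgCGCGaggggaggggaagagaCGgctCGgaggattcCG
Igf2r promoter: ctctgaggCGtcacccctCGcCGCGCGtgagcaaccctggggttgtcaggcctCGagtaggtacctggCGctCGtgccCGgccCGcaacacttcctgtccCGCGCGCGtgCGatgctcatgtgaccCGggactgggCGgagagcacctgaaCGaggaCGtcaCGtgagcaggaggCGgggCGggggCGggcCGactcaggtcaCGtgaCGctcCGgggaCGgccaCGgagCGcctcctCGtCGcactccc

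The start of *Airn* holds 11 CpGs, and 58.1% of the reads over them were methylated in WT (51.4 to 64.4%), 32.3% in *Dnmt3a* KO cells (26.4 to 38.7%) and 51.6% in *Dnmt3b* KO cells (42.9 to 60.2%). The end of the *Airn* island holds 26 CpGs, at 52.6% in WT (49.0 to 56.2%), 41.5% in *Dnmt3a* KO cells (38.1 to 45.0%) and 42.2% in *Dnmt3b* KO cells (38.6 to 45.9%). The *Igf2r* stretch holds 32 CpGs and was nearly free of methylation in every genotype, with 11 of 568 reads methylated in WT, 5 of 481 in *Dnmt3a* KO cells and 3 of 222 in *Dnmt3b* KO cells.

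The islands were covered less deeply than the rest of the locus. Over the window the mean was 25.4 reads per CpG in WT, 23.2 in *Dnmt3a* KO cells and 23.4 in *Dnmt3b* KO cells, with medians of 24, 22 and 22. The medians were 13.5, 19.5 and 13 reads in the *Airn* island, with some CpGs at 0 or 1 read, and 11, 16 and 10 reads in the *Igf2r* island. In *Dnmt3a* KO the *Airn* island was thus only slightly below the window. Over the shared part of the genome mean methylation was 82.4% in WT, 50.3% in *Dnmt3a* KO cells and 75.5% in *Dnmt3b* KO cells. The targeted genes went with the labels. The longest run of CpGs without reads in *Dnmt3b* was 30 in *Dnmt3b* KO cells and 0 in both other genotypes, and in *Dnmt3a* it was 12 in *Dnmt3a* KO, 6 in WT and 5 in *Dnmt3b* KO cells, so that the check of *Dnmt3a* is the weaker. Promoters of *Pou5f1* and *Sox2*, which encode core transcription factors of ESCs, were unmethylated, with means of at most 0.447% in every genotype.

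Whether the imprint control region kept its methylation was asked first. The *Airn* island was partly methylated in all genotypes and lower in both KOs than in WT. The mean over the 65 of its 82 CpGs with enough reads was 49.1% in WT, 38.4% in *Dnmt3a* KO cells and 33.2% in *Dnmt3b* KO cells. As a share of reads over the same 65 CpGs this was 52.8% (49.9 to 55.7%) in WT, 40.5% (38.0 to 43.0%) in *Dnmt3a* KO cells and 39.1% (36.2 to 41.9%) in *Dnmt3b* KO cells. The share was 12.3 percentage points below WT in *Dnmt3a* KO, with an interval of the difference from -16.1 to -8.46, and 13.7 points below WT in *Dnmt3b* KO cells, from -17.8 to -9.65. Between both KOs the interval over these 65 CpGs ran from -2.41 to 5.22 points and included 0. It leaves out the CpGs with fewer than 3 reads in a genotype, and no such interval was computed over all 82. It also pools stretches in which the KOs differed in opposite directions, as given below for each stretch. The difference of *Dnmt3a* KO from WT was smaller here than around the island. In the 2 kb before the island the mean went from 74.9% in WT to 45.4% in *Dnmt3a* KO, and in the 2 kb after it from 81.5 to 55.4%, whereas *Dnmt3b* KO cells had 69.1 and 76.9%. The value for *Dnmt3a* KO depended on which bases were taken as the promoter: over 500 bp on both sides of the *Airn* TSS its mean was 36.6% against 63.0% in WT, a difference of -26.4 points. There the read share in *Dnmt3a* KO was also below that in *Dnmt3b* KO, with an interval of the difference from -15.1 to -3.14 points.

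The CpGs of the *Airn* island did not differ evenly between the genotypes. The shares by stretch are over the reads of all 82 CpGs. In the first 250 bp of the island 66.3% of the reads were methylated in WT (60.5 to 71.7%), 35.7% in *Dnmt3a* KO cells (31.4 to 40.4%) and 44.7% in *Dnmt3b* KO cells (38.1 to 51.5%). In the next 250 bp, 380 to 629 bp from the TSS, it was 38 of 89 reads in WT, 46 of 152 in *Dnmt3a* KO cells and 46 of 190 in *Dnmt3b* KO cells, and the intervals of WT and *Dnmt3a* KO overlap. In the third such stretch, 630 to 879 bp from the TSS, the order was turned, with 19 of 107 reads methylated in WT, 151 of 205 in *Dnmt3a* KO cells and 21 of 87 in *Dnmt3b* KO cells. The stretches from 380 to 629 bp and from 630 to 879 bp are thinly covered, with 4.24 and 6.29 reads per CpG in WT, 7.24 and 12.1 in *Dnmt3a* KO, and 9.05 and 5.12 in *Dnmt3b* KO, and in the later of them 6 of 17 CpGs had 3 reads or more in every genotype. In the fourth stretch, 880 to 1129 bp from the TSS and covered by 23.0 to 28.0 reads per CpG, the shares were 48.8% (44.6 to 53.0%) in WT, 40.8% (36.9 to 44.8%) in *Dnmt3a* KO cells and 31.2% (27.2 to 35.5%) in *Dnmt3b* KO cells. In the last 49 bp of the island they were 63.1% (56.1 to 69.5%), 43.7% (36.8 to 50.8%) and 66.5% (60.0 to 72.4%), and the interval of *Dnmt3a* KO alone lay below that of WT.

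Single CpGs were called by the study's kind of rule, that the 95% credible interval of the difference of methylation ratios lies beyond 0.2. The same 3 CpGs of the *Airn* island, 257, 279 and 287 bp from the TSS, were called lower in both KOs, which share the WT reads. At 279 bp 15 of 16 reads were methylated in WT, 5 of 30 in *Dnmt3a* KO cells and 2 of 14 in *Dnmt3b* KO cells. A pair of CpGs was called higher in *Dnmt3a* KO than in WT, and both lie in the third stretch. At 814 bp 1 of 15 reads was methylated in WT, 14 of 19 in *Dnmt3a* KO cells and 4 of 18 in *Dnmt3b* KO cells, and at 821 bp it was 0 of 15, 16 of 23 and 5 of 17. At 959 bp all genotypes were low, with 3 of 23, 4 of 28 and 3 of 30 reads. Of the 65 covered CpGs 52 lay between 20 and 80% in WT, 53 in *Dnmt3a* KO cells and 42 in *Dnmt3b* KO cells. Below 20% lay 6, 11 and 23, in the same order. The counts below 20% depended on depth. A stricter minimum of 10 reads left 39 CpGs, and 3, 3 and 9 of them lay below 20%. The excess of *Dnmt3a* KO over WT was thus absent there, whereas that of *Dnmt3b* KO remained. Among the 65, the 7 CpGs without a methylated read in *Dnmt3a* KO lie from 546 to 599 bp. They had 3 to 5 reads each in that genotype. The plot of single CpGs of this island shows both the values and the reads behind them.

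**Figure D1:**
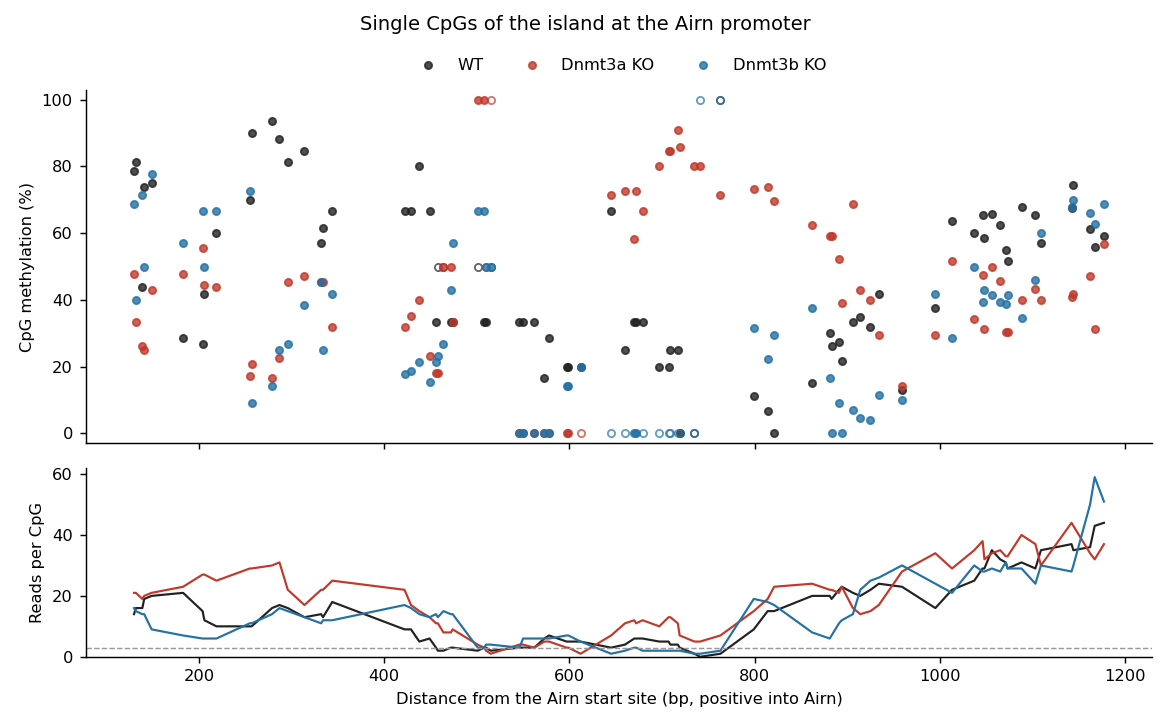
Methylation of each CpG of the *Airn* island (top, percent) and reads per CpG (bottom, with a dashed line at 3 reads) against the distance from the *Airn* TSS in bp, for WT (black), *Dnmt3a* KO (red) and *Dnmt3b* KO (blue). Open circles have fewer than 3 reads. WT points lie above both KOs at 279 and 287 bp, and among filled circles the red ones lie highest between 645 and 891 bp, where the depth is between 0 and 24 reads.

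The reads over all 82 CpGs of the *Airn* island came mainly from the forward strand. There were 1030 forward and 168 reverse reads in WT, 1348 and 218 in *Dnmt3a* KO, and 1040 and 147 in *Dnmt3b* KO cells. On the forward strand the shares were 55.4, 42.7 and 39.0%, in the order WT, *Dnmt3a* KO and *Dnmt3b* KO. On the reverse strand they were 29.8% (23.4 to 37.1%), 45.4% (38.9 to 52.0%) and 34.0% (26.8 to 42.0%), so that the order of WT and *Dnmt3a* KO was turned in these fewer reads. Over the 11 CpGs that had 3 reverse reads in every genotype WT was again the highest, with means of 62.6, 42.5 and 45.5%. The part of depth and of strand in the values of this island was not tested.

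ZFP57 is a zinc finger protein that binds the methylated hexamer TGCCGC and is known to keep imprints methylated in ESCs. The *Airn* island holds 7 such hexamers on both strands, 3 on the forward and 4 on the reverse strand. Windows of the same length, 1049 bp, centred on the TSSs of 14519 protein-coding genes held at least 1 hexamer in 37.2% and at least 7 in 0.0620% of cases. These windows were not chosen for their CpGs, as the island was, and so are not a like background. Over the CpG inside each of the 7 hexamers 56 of 107 reads were methylated in WT, 57 of 136 in *Dnmt3a* KO cells and 41 of 111 in *Dnmt3b* KO cells. The shares were 52.3% (43.0 to 61.6%), 41.9% (34.0 to 50.3%) and 36.9% (28.5 to 46.2%), close to those of the whole island. A match of these letters is a description and not a site of binding.

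The core of the *Igf2r* promoter island was nearly unmethylated in every genotype, and the level of the whole island depended on which CpGs were taken. The mean of the island was 6.69% in WT, 1.28% in *Dnmt3a* KO cells and 3.73% in *Dnmt3b* KO cells over all 111 CpGs. Where 10 or more reads per genotype were asked for, 37 CpGs remained, their means were 14.0, 2.45 and 8.48%, and the difference of *Dnmt3a* KO from WT was -11.6 in place of -5.41 points. The share of methylated reads was 7.59% (6.37 to 9.01%), 1.46% (0.993 to 2.15%) and 4.78% (3.71 to 6.14%). What methylation there was in WT lay at the ends of the island. In the last 100 bp on the upstream side 71 of 132 reads were methylated in WT, 10 of 108 in *Dnmt3a* KO cells and 32 of 92 in *Dnmt3b* KO cells. In the last 100 bp on the side of the gene it was 25 of 83, 1 of 122 and 17 of 132 reads. Between both ends, over 96 CpGs, it was 1.64% (1.09 to 2.47%) in WT, 0.947% (0.565 to 1.58%) in *Dnmt3a* KO cells and 0.826% (0.419 to 1.62%) in *Dnmt3b* KO cells, and these intervals overlap. By pooled reads the methylated ends were therefore lower in both KOs and lowest in *Dnmt3a* KO, whereas the core was low in all. In *Dnmt3b* KO not every CpG of the ends was lower. At -300 bp from the TSS 10 of 19 reads were methylated in WT and 7 of 11 in *Dnmt3b* KO cells.

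Of the CpGs of this island 88 had no methylated read in WT, 102 in *Dnmt3a* KO cells and 98 in *Dnmt3b* KO cells. The 4 CpGs called lower in *Dnmt3a* KO cells and the 1 called lower in *Dnmt3b* KO lie in these ends. At -292 bp from the TSS 12 of 19 reads were methylated in WT, 0 of 14 in *Dnmt3a* KO cells and 7 of 11 in *Dnmt3b* KO cells, and at -326 bp it was 11 of 20, 2 of 18 and 0 of 15. The surroundings of the island were methylated in WT. In the 2 kb of *Igf2r* next to it the mean was 92.8% in WT, 53.4% in *Dnmt3a* KO cells and 89.2% in *Dnmt3b* KO cells, and in the 2 kb upstream 90.1, 55.4 and 83.3%.

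**Figure D2:**
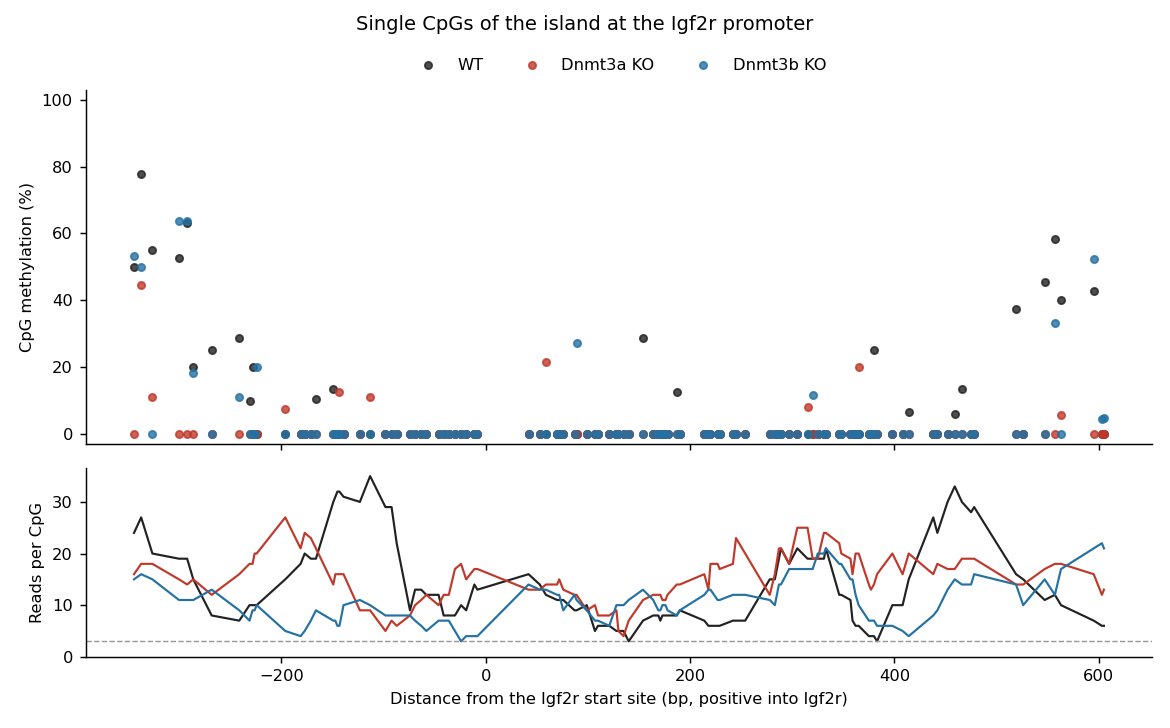
Methylation of each CpG of the *Igf2r* island (top, percent) and reads per CpG (bottom, with a dashed line at 3 reads) against the distance from the *Igf2r* TSS in bp, with positive values into the gene, for WT (black), *Dnmt3a* KO (red) and *Dnmt3b* KO (blue). Most points lie at 0, and the points above 40% lie at both ends, the highest being the WT value of 77.8% at -337 bp.

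Outside both islands the gene bodies were highly methylated in WT, and *Dnmt3a* KO cells kept more methylation in *Igf2r* than in *Airn*. In *Igf2r* outside the islands the mean over 966 CpGs was 92.8% in WT, 64.4% in *Dnmt3a* KO cells and 88.8% in *Dnmt3b* KO cells. In *Airn* outside *Igf2r* the mean over 818 CpGs was 90.8, 55.7 and 86.2%. The differences of read shares from WT were -28.4 points (-29.1 to -27.7) in *Igf2r* and -34.6 points (-35.4 to -33.8) in *Airn* for *Dnmt3a* KO, and -4.40 points (-4.91 to -3.89) and -5.06 points (-5.68 to -4.44) for *Dnmt3b* KO. In the part of *Igf2r* that *Airn* does not overlap *Dnmt3a* KO cells had a mean of 67.0% with a share of reads of 67.7% (67.0 to 68.4%), and in the part that it overlaps 57.5% with a share of 56.0% (54.8 to 57.2%). WT had 93.7 and 90.5% in these parts, and *Dnmt3b* KO cells had 90.2 and 85.3%.

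**Figure D3:**
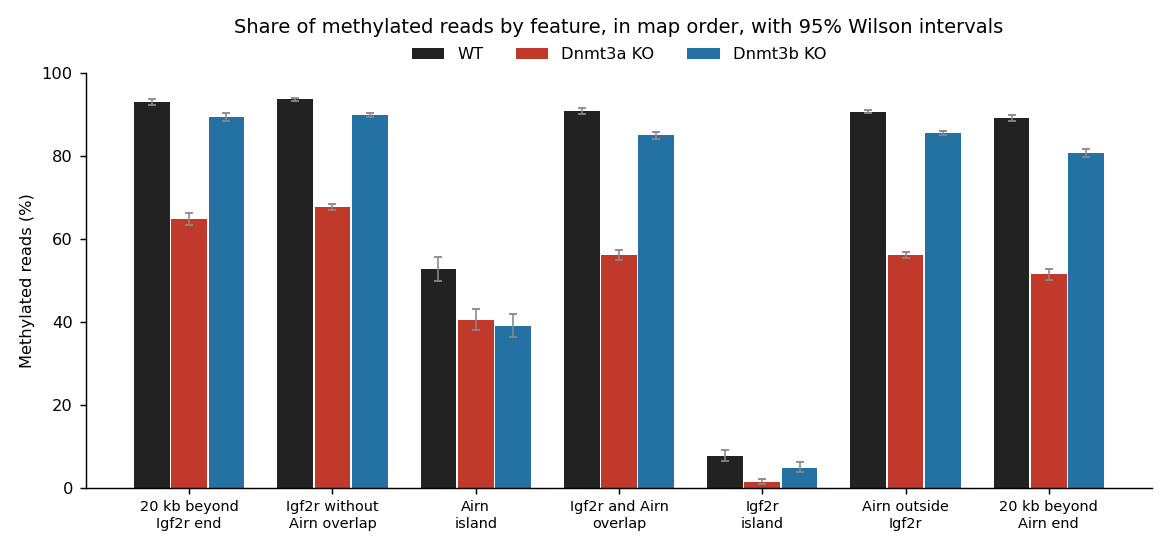
Share of methylated reads (percent) of 7 features of the locus in map order, for WT (black), *Dnmt3a* KO (red) and *Dnmt3b* KO (blue), with error bars for the 95% Wilson interval, which covers counting error only. Red bars go from 67.7% in *Igf2r* without overlap to 51.4% beyond the *Airn* end, and both islands stand apart in all genotypes.

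Along the map, in 20 kb steps counted from the *Airn* TSS, the mean in *Dnmt3a* KO was 62.2, 67.9, 68.7 and 63.7% in the steps before the TSS and 59.2, 53.5, 58.1, 55.3, 56.2, 54.9 and 48.0% in the steps after it. The CpGs of both islands were left out of these steps, and what follows holds only without them. The decrease began before the TSS, with no larger drop across it than on either side, and it was not even along *Airn*. WT lay between 89.1 and 94.6% in all of these steps. The 20 kb beyond the end of *Igf2r* had 92.6% in WT, 62.9% in *Dnmt3a* KO cells and 89.0% in *Dnmt3b* KO cells. The 20 kb beyond the end of *Airn* were lower than these and than both gene bodies outside the islands, with 88.7, 48.3 and 78.6%. There *Dnmt3b* KO cells were also further from WT than in the gene bodies and the other flank, by -8.49 points of the read share (-9.80 to -7.18).

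The exons of *Igf2r* kept more methylation than its introns. In the part without *Airn* overlap the 192 exonic CpGs had means of 94.1% in WT, 70.5% in *Dnmt3a* KO cells and 93.1% in *Dnmt3b* KO cells, and the 506 intronic CpGs had 93.5, 65.7 and 89.0%. In *Dnmt3b* KO the read share differed from WT by -1.26 points in these exons (-2.25 to -0.280) and by -4.66 points in the introns (-5.36 to -3.97). The last exon had means of 95.5, 71.8 and 94.6%. In *Airn* outside *Igf2r* the 35 exonic CpGs had 90.1, 55.1 and 85.2%, close to the whole of *Airn*.

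For comparison, the bodies of protein-coding genes were measured in the same way, without 1 kb on both sides of the TSS and with at least 50 CpGs. Over 10547 genes the median difference from WT was -35.1 points in *Dnmt3a* KO cells and -7.17 points in *Dnmt3b* KO cells. *Igf2r*, with its *Airn* island included, was at -27.2 and -4.71 points, and 92.1 and 91.1% of the genes were lower than that. Outside both islands its difference in *Dnmt3a* KO was -28.4 points, below the upper decile of the genes at -28.2 points. The rank of this difference in *Dnmt3a* KO therefore depends on the island. Its level in *Dnmt3a* KO, 62.8%, was above that of 96.3% of the genes, whose median was 51.8%, while its WT level of 90.1% was above that of 63.6%. The difference from WT was 5.14 points smaller in the exons than in the introns of *Igf2r* in *Dnmt3a* KO cells and 4.87 points smaller in *Dnmt3b* KO. Over 9080 genes with enough CpGs in both the medians of this measure were 1.82 and -0.153 points, and *Igf2r* was above 68.3 and 92.1% of them. The introns of *Igf2r* include the *Airn* island here, at -15.8 points in *Dnmt3b* KO. In *Dnmt3a* KO the values outside the islands were -23.1 points in exons and -29.8 points in introns, a larger gap than 5.14 points. Outside the islands *Dnmt3b* KO was -0.783 points from WT in exons and -4.78 points in introns. Without the overlapped part it was -0.910 and -4.49 points. Both gaps are smaller than 4.87 points and lie below the upper decile of the genes, 4.37 points. The rank of 92.1% for the exons and introns in *Dnmt3b* KO therefore does not hold outside the island.

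Over the window 547 of 2372 CpGs, or 23.1%, were called lower in *Dnmt3a* KO than in WT, against a background of 25.6% over the shared part of the genome. In *Dnmt3b* KO it was 26 of 2361 CpGs, or 1.10%, against 2.14%. The calls in the higher direction were 2 in *Dnmt3a* KO, against 0.00703% over the shared part, and 1 in *Dnmt3b* KO, against 0.069%. The share of lower calls was thus below the background by this rule, but for *Dnmt3a* KO the order turned with Fisher's exact test at a Benjamini-Hochberg adjusted p of 0.05, at 49.8% of the CpGs against 48.6%. The share called lower in *Dnmt3a* KO was 16.8% in *Igf2r* without overlap, 27.2% in the overlapped part, 28.5% in *Airn* outside *Igf2r* and 37.4% in the 20 kb beyond *Airn*. In the islands it was 3 of 73 CpGs at *Airn* and 4 of 111 at *Igf2r*, which cannot be set against the other shares. In the *Igf2r* island 88 CpGs had no methylated read in WT and could not be called lower. The *Airn* island was only partly methylated in WT and less deeply covered. The CpG called higher in *Dnmt3b* KO lies at -36341 bp from the *Airn* TSS, within *Igf2r*, with 15 of 27 reads methylated in WT and 32 of 32 in *Dnmt3b* KO cells.

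Runs of at least 4 called CpGs, no more than 300 bp apart, were taken as differentially methylated regions (DMRs). *Dnmt3a* KO cells had 22 DMRs with 114 CpGs, or 4.81% of the CpGs tested, against 6.1% in the background. *Dnmt3b* KO cells had 0, against 0.0434%, and with the same rule at single CpGs 26 calls were spread over the window. Of the 22 DMRs, 21 lie from the *Airn* TSS on and 1 in the 58905 bp of *Igf2r* before it, at chr17:12930302-12930713. The islands, with the limits given above, hold none of their CpGs. The lowest levels were in a DMR of the overlapped part, chr17:12954555-12954860, at 91.0% in WT and 11.5% in *Dnmt3a* KO, and in a DMR beyond the *Airn* end, chr17:13064990-13065111, at 92.3 and 6.67%. *Airn* outside *Igf2r* held 9 of the DMRs, the overlapped part 7 and the 20 kb beyond the *Airn* end 5. Of these last, 4 lie from chr17:13063613-13064208 to chr17:13066294-13066362, among them the longest of all, of 724 bp, at 94.3% in WT and 27.1% in *Dnmt3a* KO.

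By 500-bp bins with at least 3 covered CpGs, 273 of 348 bins, or 78.4%, were more than 20 points lower in *Dnmt3a* KO than in WT, against 81.6% in the background. In *Dnmt3b* KO it was 13 bins, or 3.74%, against 8.48%. Of the 19 bins between 20 and 80% in WT, 12, or 63.2%, were lower by this measure in *Dnmt3a* KO, against 73%, and 0 in *Dnmt3b* KO, against 15.1%. For *Dnmt3a* KO the order against the background depended on the bins. With bins shifted by 250 bp it was 84.2% of all bins against 81.6%, and 17 of the 21 bins between 20 and 80% in WT, or 81.0%, against 73.0%. In 1000-bp bins it was 86.4% of all bins against 86.0%, and 11 of the 15 bins between 20 and 80% in WT, or 73.3%, against 75.8%. With at least 5 CpGs per bin it was 5 of 10 such bins against 79.1%. Of the 21 shifted bins 2, or 9.52%, were lower in *Dnmt3b* KO, against 15.1%, and 2 were higher, against 1.59%. The median difference over the bins was -31.0 points in *Dnmt3a* KO cells and -4.52 points in *Dnmt3b* KO, with -32.7 and -5.80 points over the shared part. By place, 67.3% of the bins of *Igf2r* without overlap, 78.0% of the overlapped part and 86.6% of *Airn* outside *Igf2r* were lower in *Dnmt3a* KO. The number of CpGs in a bin bore little relation to its level outside the islands, with Spearman's rho of 0.0923 in WT, 0.0770 in *Dnmt3a* KO cells and 0.101 in *Dnmt3b* KO cells over 342 bins, given as a description since bins of 1 table share its depth and base composition.

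**Figure D4:**
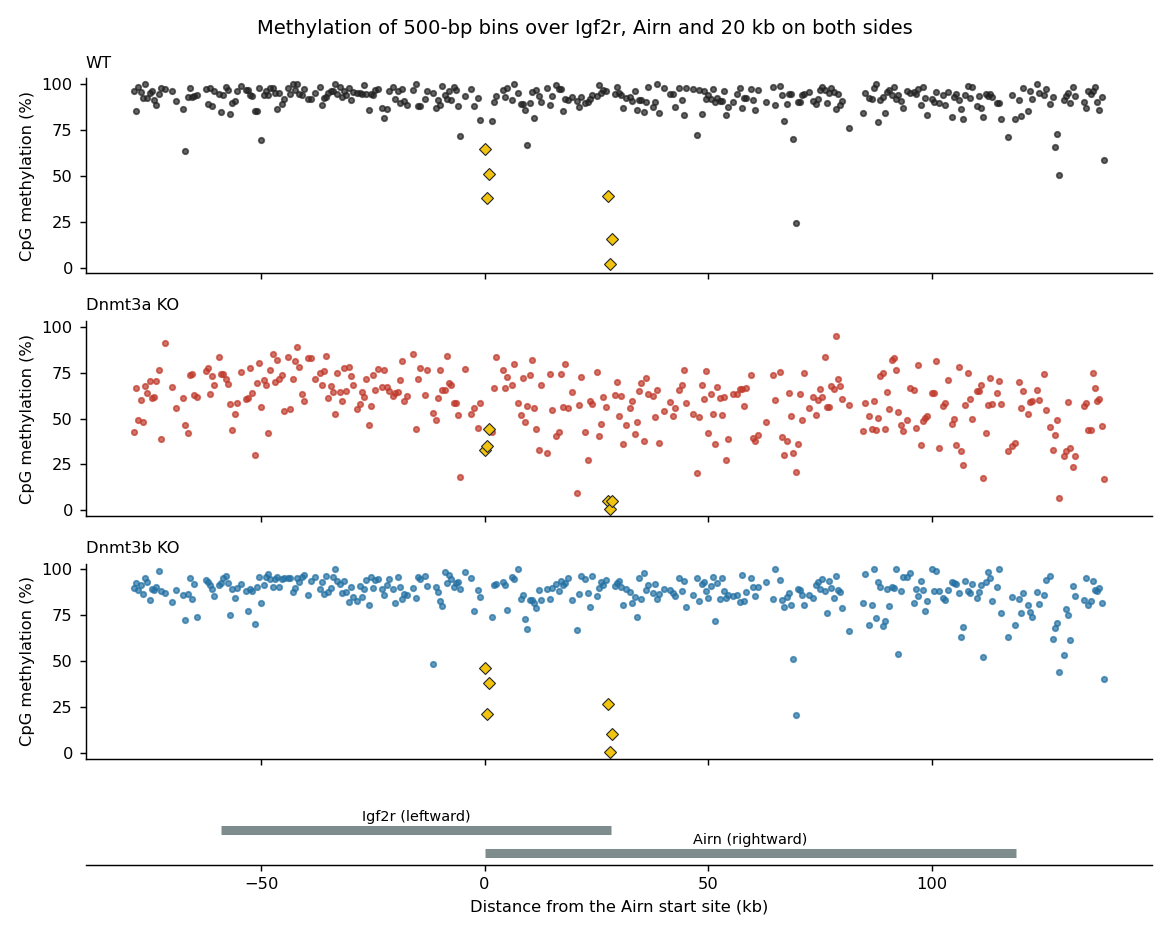
Mean methylation (percent) of each 500-bp bin over the window against the distance from the *Airn* TSS in kb, for WT (top), *Dnmt3a* KO and *Dnmt3b* KO. Diamonds are bins that touch either island, and grey bars below mark *Igf2r* and *Airn*. WT bins outside the islands lie mostly above 80%, and *Dnmt3a* KO bins scatter more widely and lie lower to the right of the *Airn* TSS.

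The bin furthest below WT in *Dnmt3a* KO was chr17:12954501-12955000 in the overlapped part, with 90.8% in WT, 9.51% in *Dnmt3a* KO cells and 66.8% in *Dnmt3b* KO cells over 5 CpGs. It was followed by chr17:13065501-13066000 beyond *Airn*, at 98.4, 23.9 and 90.9%, and by chr17:12948001-12948500 in the overlapped part, at 97.6, 31.0 and 89.3%. The bins chr17:13045501-13046000 and chr17:13066001-13066500 came next, with differences of -64.3 and -64.2 points. The bin of *Airn* at chr17:13012501-13013000 was the only bin with a higher mean in *Dnmt3a* KO than in WT, at 86.6 and 94.9%, and its Wilson intervals overlap (76.8 to 93.9% and 85.9 to 97.2%). It overlaps the pseudogene *Gm7162*. The other bins with the least difference were 2 bins of the islands, a bin of *Igf2r* at chr17:12887501-12888000 with 86.3 and 81.9%, and a bin inside *Airn* that was low in all genotypes. This last bin, chr17:13003501-13004000, had means of 24.1% in WT, 20.9% in *Dnmt3a* KO cells and 21.0% in *Dnmt3b* KO cells over 5 CpGs. The Wilson intervals of its read shares were 10.2 to 20.8%, 7.81 to 20.4% and 12.7 to 25.3%. The means of WT and *Dnmt3a* KO lie above their intervals, so that both were lower by reads.

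In *Dnmt3b* KO cells the bin furthest below WT was chr17:12922501-12923000 in *Igf2r*, with 94.9% in WT, 53.2% in *Dnmt3a* KO cells and 48.5% in *Dnmt3b* KO over 3 CpGs. The bins chr17:13026501-13027000 in *Airn*, at 94.2, 53.8 and 54.2%, and chr17:13063501-13064000 beyond it, at 91.3, 29.5 and 53.1%, came next. The bins chr17:13061001-13061500 and chr17:13045501-13046000 were at -31.1 and -29.8 points. Each of these 5 bins was below WT in *Dnmt3a* KO too, as was every bin of the window except chr17:13012501-13013000. The bin furthest above WT in *Dnmt3b* KO was chr17:12981501-12982000 in *Airn*, at 72.0% in WT and 94.9% in *Dnmt3b* KO over 3 CpGs, but the Wilson intervals of its read shares overlap (73.3 to 93.6% and 84.1 to 96.9%). In the means, the other 4 highest bins, all of 3 or 4 CpGs, were 12.2 to 17.1 points above WT, and their intervals overlap too except in chr17:12969501-12970000 (75.3 to 89.8% and 91.8 to 99.7%). All of these 5 bins were lower than WT in *Dnmt3a* KO, which again sets them apart from no other bin but that one.

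The bins of the *Airn* island were at 64.7, 37.8 and 51.2% in WT, at 33.0, 34.9 and 44.5% in *Dnmt3a* KO cells and at 46.4, 21.1 and 38.1% in *Dnmt3b* KO cells, in map order. The differences from WT were -31.7, -2.87 and -6.75 points in *Dnmt3a* KO cells and -18.3, -16.7 and -13.1 points in *Dnmt3b* KO. The middle bin had 7.35 reads per CpG in WT. By reads *Dnmt3a* KO was not lower than WT there, with intervals of 32.0 to 46.6% in WT and 37.3 to 49.0% in *Dnmt3a* KO. The bins of the *Igf2r* island were at 39.2, 1.96 and 15.9% in WT, 5.04, 0.749 and 4.93% in *Dnmt3a* KO cells and 27.0, 0.591 and 10.3% in *Dnmt3b* KO cells. In *Dnmt3a* KO 1 of the 3 bins of each island was thus more than 20 points lower, and in *Dnmt3b* KO 0 were.

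**Figure D5:**
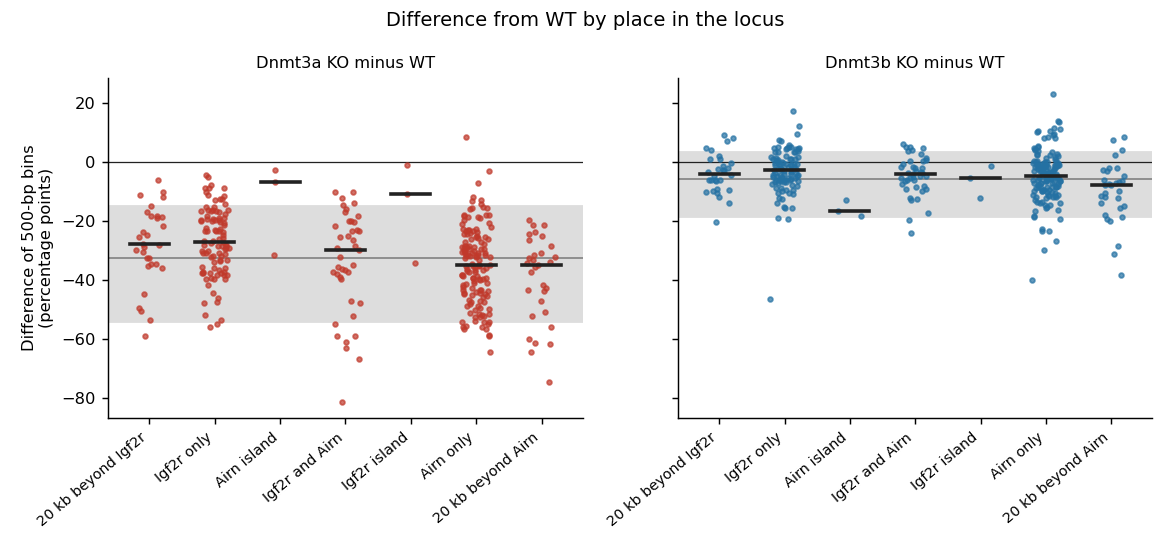
Difference of each 500-bp bin from WT (percentage points) by its place in the locus, in map order, for *Dnmt3a* KO (left) and *Dnmt3b* KO (right). Black bars are medians by place, the grey line and band are the median and the 10th to 90th percentile over the shared part of the genome. Outside the islands medians in *Dnmt3a* KO go from -27.0 points in *Igf2r* without overlap to -35.0 points in *Airn* outside *Igf2r*. Those of the *Airn* and *Igf2r* islands are -6.75 and -10.9 points.

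The neighbours of *Igf2r* and *Airn* described here were methylated at their starts, taken as 500 bp on both sides of the TSS, except *Slc22a3*. *Slc22a2* and *Slc22a3* encode organic cation transporters, and both genes are known to be imprinted with *Igf2r* in the placenta. At *Slc22a3* the mean over 55 CpGs was 26.8% in WT, 8.35% in *Dnmt3a* KO cells and 20.7% in *Dnmt3b* KO cells, and at *Slc22a2* it was 91.2, 68.2 and 89.2%. The start of *Plg*, which encodes plasminogen, had 91.5, 72.0 and 83.1%. *Mas1*, which encodes a G protein-coupled receptor and overlaps the end of *Airn*, had 89.6, 38.4 and 76.3% over 7 CpGs. As shares of reads, in the order WT and *Dnmt3b* KO, the starts of *Slc22a3* (33.2 and 33.4%) and *Slc22a2* (91.7 and 92.8%) were not lower in *Dnmt3b* KO. Those of *Mas1* (87.3 and 84.9%) and *Plg* (91.9 and 85.9%) were lower, but their intervals overlap. At *Plg* the intervals only just meet (88.7 to 94.3% and 82.3 to 88.8%). An interval of the difference was not computed for these starts, and the overlap of separate intervals does not decide it. Whether *Mas1* and *Plg* were lower in *Dnmt3b* KO by reads was therefore left undecided. Of the gene bodies, *Mas1* had 90.9, 55.8 and 86.2%, *Slc22a2* 88.2, 59.1 and 82.9%, *Slc22a3* 83.0, 51.9 and 77.7%, and *Plg* 90.0, 58.4 and 83.9%. These bodies include the starts of the genes, whereas the 64.4% of *Igf2r* in *Dnmt3a* KO cells leaves out both islands. They are therefore not ranked against it.

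The smaller genes in the window were also methylated in WT. *Mrgprh*, a receptor gene beyond *Airn*, had a body at 95.9% in WT, 59.9% in *Dnmt3a* KO cells and 88.8% in *Dnmt3b* KO cells. *Gm17592*, which a DMR overlaps, had 95.9, 44.4 and 85.6%, the pseudogene *Gm16574* had 96.3, 65.2 and 86.2%, and the pseudogene *Gm7162* had 92.3, 77.9 and 89.2%. The start of the microRNA gene *AL589878.1* had 97.1, 64.2 and 82.3% over 7 CpGs. Reads of a pseudogene can stem from its parent gene where both sequences are alike.

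Promoters at other imprint control regions that gain methylation in the oocyte were measured for comparison. The *Plagl1* promoter, of a zinc finger gene, had 46.9% in WT, 50.2% in *Dnmt3a* KO cells and 46.5% in *Dnmt3b* KO cells. *Mcts2*, a retrogene, had 56.2, 50.3 and 42.7%, and as shares of reads 59.5, 46.3 and 47.2%, so that the value in *Dnmt3a* KO lay further below WT by reads. The promoter of *Zrsr1*, a retrogene for a splicing factor, had means of 57.1, 39.1 and 47.8%. *Nnat*, which encodes neuronatin, had 62.8% in WT, 34.1% in *Dnmt3a* KO cells and 90.6% in *Dnmt3b* KO cells. The window of the same size at the *Airn* TSS, at 63.0, 36.6 and 43.8%, had a difference from WT in *Dnmt3a* KO near that of *Nnat*, which was -28.8 points, and in *Dnmt3b* KO the furthest below WT of these 5 promoters, at -19.2 points.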

How the data were processed

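WGBS tables of J1 ESCs of 3 genotypes were used, each made from 3 libraries. According to the study's methods, the authors used BSMAP for alignment to mm9, removed end-repair bases, clonal reads and overlaps of read mates with BSeQC, and used MOABS for methylation ratios. Per the labels, the libraries of a genotype share 1 merged table. The deposited values are read counts per CpG (all and methylated reads, in total and by strand), which were not normalized, and the ratio of both, which the authors gave as a fraction from 0 to 1. All listed positions of the shared part (41639456) were CpGs of the reference. For WT the values used here stop on chromosome 4 (1 incomplete last row was left out), and backgrounds cover 13 whole chromosomes and part of chromosome 4.

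Mean methylation was the mean ratio, taken over CpGs that had 3 reads or more in each genotype. CpGs were called when the 95% credible interval of the difference, from Beta posteriors with a uniform prior, lay beyond 0.2, with counts above 200 reads scaled to 200. The level of the interval is not given in the sources used here. Islands had at least 500 bp, 55% GC and an observed over expected ratio of 0.65. Differences between read shares have Newcombe intervals. Genes came from the GENCODE annotation of mm9. No test across replicates was made, since each genotype is 1 merged table. The WT reads are common to both comparisons. Named were the genes that overlap the window, fixed neighbours (a result on a neighbour is not reported here), fixed promoters for comparison (*Peg13* was not found in the annotation), and the 5 bins with the highest and lowest difference for each KO. The members, lists and tests were chosen with earlier results of these data known, and the DMRs named were chosen after their values were seen. Alternatives covered the minimum of reads, weighting, the median, the strand, the promoter window, the rule for calls and the bins. Python 3.11.15, NumPy 2.4.6, SciPy 1.17.1, numba 0.67.0 and matplotlib 3.10.9 were used.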

Additional observations from a re-analysis of the deposited data

How the results depend on the processing

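No paired analysis was possible because the libraries of each genotype were merged into 1 table, and for the same reason no library could be left out. Of 48 alternative values 27 stayed within the counting interval or within 1.5 times the count and 21 moved, and none of these changed direction; 34 of the 36 alternative differences were below 0, and the other 2 were 0. At the *Airn* island the difference of *Dnmt3a* KO from WT, -10.6 points, was -17.0 points with at least 10 reads (39 CpGs), -14.8 for the median of CpGs, -26.4 within 500 bp of the TSS, -15.4 on the forward strand (63 CpGs) and -20.1 on the reverse strand (11 CpGs), although over all its reverse reads the order was turned, with 29.8% in WT and 45.4% in *Dnmt3a* KO. That of *Dnmt3b* KO, -15.8 points, was -20.4 for the median. At the *Igf2r* island the difference of *Dnmt3a* KO, -5.41 points, was -11.6 with at least 10 reads (37 CpGs), 0 for the median, -8.36 on the forward and -6.87 on the reverse strand. That of *Dnmt3b* KO, -2.96 points, was -5.55, 0 for the median and -4.79 on the forward strand. The medians are 0 because most CpGs of this island have no methylated read. In *Airn* outside *Igf2r* the difference of *Dnmt3a* KO, -35.1 points, was -37.4 for the median. CpGs called lower numbered 547 in *Dnmt3a* KO and 26 in *Dnmt3b* KO, 357 and 10 with a 99% interval, and 1181 and 70 with Fisher's exact test at a Benjamini-Hochberg adjusted p of 0.05. With the 99% interval these were 15.1 and 0.424% of the CpGs tested, against 16.8 and 1.01% over the shared part of the genome, and with Fisher's test 49.8 and 2.96%, against 48.6 and 3.82%. Fewer bins are tested with at least 5 CpGs, of which 167 of 210 (79.5%, against 81.4%) and 3 (1.43%, against 6.51%) were lower, and with 1000-bp bins 2 of 214 (0.935%, against 7.26%) were lower in *Dnmt3b* KO. Otherwise the cause of these shifts was not tested. Depth limits both islands: 17 of 82 CpGs of the *Airn* island had fewer than 3 reads in a genotype, and the *Igf2r* island had the lower median depth.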
